A study of Mus musculus with 21 samples.

Results

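A set of 7 genes that act at the cell surface or just below it in gp130 cytokine and FGF receptor signalling was followed through 7 groups of sorted mouse spleen cells. They are the receptor chains Lifr, Il6st and Il6ra, the FGF receptor Fgfr1, and the intracellular inhibitors Spry1, Spry2 and Spred1. The members were the probe sets annotated with exactly 1 of these symbols, 23 of the 45101 on the array, and 20 of the 23 passed the filter on low signals, with at least 1 for each gene. Lifr, Il6st, Fgfr1 and Spry2 were picked because they moved with Flt3L in these arrays, so their differences between Flt3L and wild-type mice are given below as a description, with no test. Il6ra, Spry1 and Spred1 were not picked on their values.

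The cells came from C57BL/6 mice, and each array held the RNA of 1 pool of mice, with 3 arrays in each group. Dendritic cells (DCs) bound by the 33D1 antibody, which marks the CD8-negative splenic subset, and DCs bound by the DEC205 antibody, which marks the CD8-positive one, were sorted from mice that had received Flt3L melanoma and from wild-type mice. Flt3L is the ligand of the receptor Flt3 and expands DCs. The melanoma-bearing mice were killed on days 10 to 12, so ligand and tumour cannot be told apart, and these mice are called Flt3L mice here. B cells, CD8 T cells and CD4 T cells came from wild-type mice. A pool held 20 Flt3L mice, 40 to 80 wild-type mice for DCs, or 5 to 8 wild-type mice for lymphocytes, and the sources used give no ages. It is not stated whether a group's 3 pools shared any step before labelling, so the p-values cover the spread between pools, which may be technical.

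The marker genes followed the sample titles. Zbtb46, a transcription factor of DCs, had a signal between 2096 and 3969 on the 12 DC arrays and at most 115.6 on the 9 lymphocyte arrays, although a description field of the labels calls the lymphocytes DCs too. Of 7 tested T cell markers, 6 lay at or below the table median of 156.3 on all 12 DC arrays and on the B cell arrays. A pair of DC arrays carried more of the other subset's markers than their fellows. On array 3 of 33D1 DCs of Flt3L mice, 11 markers of CD8-positive DCs summed to 10346, against 5175 and 5970 on the other arrays of that group. On array 3 of wild-type DEC205 DCs, 10 markers of CD8-negative DCs summed to 8016, against 2654 and 3116. Leaving out both arrays changed none of the calls of members given below. The summed signal of 5 tested melanocyte and melanoma genes lay between 796.4 and 1096 on DC arrays of Flt3L mice and between 852.4 and 1321 on those of wild-type mice, and none of the 5 was called.

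As background, Il6st encodes gp130, the signalling chain shared by the receptors of the interleukin-6 family. Interleukin-6 first binds the chain encoded by Il6ra, leukemia inhibitory factor binds the chain encoded by Lifr, and both complexes signal through gp130 and Janus kinases to STAT3, which induces its own inhibitor Socs3. Fgfr1 is a receptor tyrosine kinase that passes the signal of fibroblast growth factors through adaptors to the Ras and ERK cascade. Sprouty and Spred proteins dampen that cascade, and the ETS factor Etv5 and phosphatases of the Dusp family are among the genes it induces.

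The promoters of Lifr, Il6st and Spry2 are shown because these genes lay in different directions in the DCs of Flt3L mice. RefSeq (GRCm38.p6) gave a window of 250 bases before the start of transcription for 6 of the 7 members, all but Fgfr1, and Lifr had 2 annotated starts. Capitals mark GGGCGG or its complement CCGCCC, the box bound by Sp1, searched on both strands and found in 32.7% of 32851 mouse promoter windows of that length.
Lifr start 1, chr15:7129322-7129571, plus strand: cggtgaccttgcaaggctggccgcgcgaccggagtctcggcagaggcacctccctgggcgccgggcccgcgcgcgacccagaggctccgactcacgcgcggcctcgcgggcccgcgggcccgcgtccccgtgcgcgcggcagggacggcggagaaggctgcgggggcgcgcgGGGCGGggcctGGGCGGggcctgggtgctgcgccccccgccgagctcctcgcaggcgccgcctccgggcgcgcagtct
Lifr start 2, chr15:7140292-7140541, plus strand: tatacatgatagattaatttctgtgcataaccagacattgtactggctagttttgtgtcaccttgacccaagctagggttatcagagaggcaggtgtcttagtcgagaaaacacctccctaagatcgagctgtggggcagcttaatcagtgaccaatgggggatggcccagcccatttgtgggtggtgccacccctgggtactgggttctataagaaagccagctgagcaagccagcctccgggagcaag
Il6st, chr13:112463820-112464069, plus strand: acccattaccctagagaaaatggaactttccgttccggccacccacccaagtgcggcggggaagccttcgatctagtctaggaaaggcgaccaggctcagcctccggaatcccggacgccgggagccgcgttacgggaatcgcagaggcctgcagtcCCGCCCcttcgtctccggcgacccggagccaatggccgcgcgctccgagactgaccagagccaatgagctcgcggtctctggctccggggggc
Spry2, chr14:105896820-105897069, minus strand: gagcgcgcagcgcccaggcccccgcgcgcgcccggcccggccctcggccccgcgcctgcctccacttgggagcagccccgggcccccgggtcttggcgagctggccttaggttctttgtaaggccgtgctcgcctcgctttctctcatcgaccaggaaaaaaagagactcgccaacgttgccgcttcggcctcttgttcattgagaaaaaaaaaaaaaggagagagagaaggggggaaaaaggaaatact
The 2 Lifr windows differ in base composition, with 82.4% G and C and 43 CpG dinucleotides before start 1 against 50.8% and 3 before start 2. The Il6st window had 66.0% G and C with 26 CpG dinucleotides, and the Spry2 window 62.4% with 23. The box occurred 2 times before Lifr start 1, 1 time before Il6st, and in neither the Lifr start 2 window nor the Spry2 window. The letters TTCNNNGAA (the STAT site, in 7.02% of windows), CCGGAAGT (ETS, 2.88%), TGANTCA (AP-1, 6.75%) and TATAAA (12.4%) were not in any of the 7 member windows. The array does not tell which Lifr start was used.

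Lifr was far lower in wild-type DEC205 DCs than in the other DC groups. Its signal, in the units of Affymetrix MAS5 software, was 625.2, 895.4 and 574.8 in 33D1 DCs of Flt3L mice and 437.3, 426.0 and 431.4 in those of wild-type mice. In DEC205 DCs it was 462.8, 353.2 and 201.1 in Flt3L mice and 21.5, 15.6 and 18.5 in wild-type mice. The wild-type DEC205 arrays thus all lay far below the table median, and every other DC array lay above it. B cells were uneven, at 483.8, 234.5 and 55.6, while CD8 T cells reached at most 8.5 and CD4 T cells at most 58.4. The B cell values overlapped those of CD4 T cells, of DEC205 DCs of Flt3L mice and of wild-type 33D1 DCs. Only 1 of the 3 Lifr probe sets passed the filter, and the other 2 had signals of at most 131.9 on every array, so the Lifr values rest on a single probe set.

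Il6st, the gp130 chain, was low in B cells and split the DC groups in another way. The signal was 2787, 2148 and 2973 in 33D1 DCs of Flt3L mice and 2715, 2949 and 2293 in those of wild-type mice, which overlapped. DEC205 DCs had 675.0, 605.4 and 789.5 in Flt3L mice and 1902, 1742 and 1756 in wild-type mice, and these did not. B cells held 176.7, 126.4 and 227.3, the lowest group, against a mean of 2764 ± 297 in CD8 T cells and 2432 ± 193 in CD4 T cells (SD, n = 3). T cells and 33D1 DCs of both kinds of mice overlapped at the top of the order.

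Il6ra, the chain that binds interleukin-6, was higher in 33D1 than in DEC205 DCs in both kinds of mice. It had 1168, 1033 and 1545 in 33D1 DCs of Flt3L mice and 1456, 1354 and 1445 in those of wild-type mice. In DEC205 DCs the values were 501.8, 583.3 and 788.3 in Flt3L mice and 644.3, 617.3 and 624.2 in wild-type mice. Within each subset the Flt3L and wild-type arrays overlapped. CD4 T cells had the highest mean, 1992 ± 454, CD8 T cells 1342 ± 280 and B cells 307.7 ± 38.8 (SD, n = 3 each).

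Fgfr1 separated Flt3L mice from wild-type mice in both subsets on its main probe set. The signal was 1029, 1271 and 1414 in 33D1 DCs of Flt3L mice and 267.3, 335.9 and 254.8 in those of wild-type mice. DEC205 DCs had 1382, 1578 and 817.5 in Flt3L mice and 396.2, 293.9 and 284.9 in wild-type mice. Every Flt3L array lay above every wild-type array, and the subsets overlapped within each kind of mouse. On all 9 lymphocyte arrays this probe set stayed at 101.3 or less, below the table median. The other 2 Fgfr1 probe sets were above that median on 1 lymphocyte array each, at 161.7 in CD4 T cells and 166.5 in CD8 T cells.

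Among the inhibitors, Spry2 was high in 33D1 DCs and low in DEC205 DCs of Flt3L mice. It had 294.2, 290.6 and 282.4 in 33D1 DCs of Flt3L mice, against 143.1, 138.2 and 193.4 in those of wild-type mice. DEC205 DCs had 44.3, 44.2 and 14.3 in Flt3L mice, against 98.9, 215.3 and 104.7 in wild-type mice. The Flt3L arrays of the 2 subsets formed the top and the bottom of the order, and the wild-type DCs overlapped each other and lymphocytes, which had means between 157.2 and 206.2. Spred1, which keeps Ras from activating Raf, followed the subset instead, with 752.2, 633.1 and 559.0 in 33D1 DCs of Flt3L mice and 692.7, 683.2 and 578.7 in those of wild-type mice. DEC205 DCs had 370.2, 355.6 and 439.5 in Flt3L mice and 417.4, 171.6 and 369.0 in wild-type mice, all below the 33D1 arrays. Spry1 varied little, from a mean of 280.0 ± 27.0 in 33D1 DCs of Flt3L mice to 564.2 ± 81.8 in CD4 T cells (SD, n = 3), the only group whose arrays all lay above the other groups'.

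**Figure D1:**
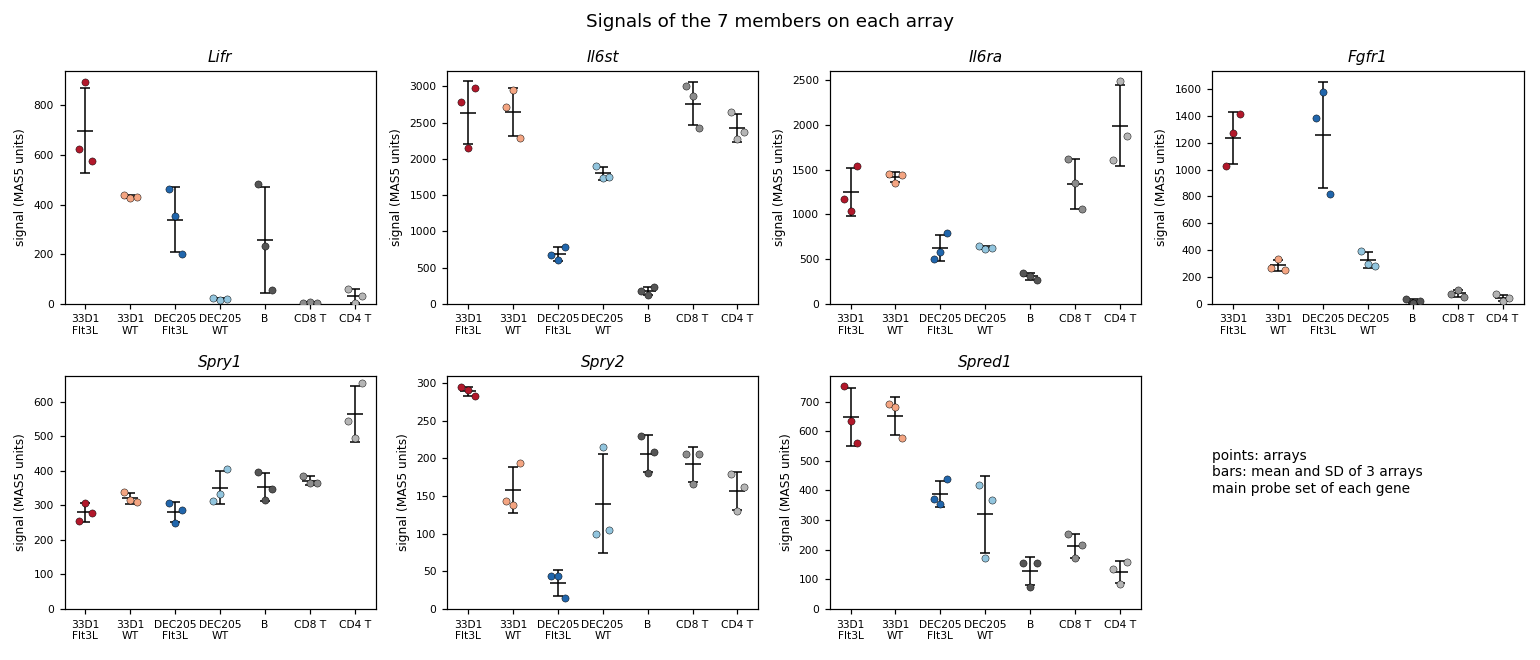
Signal in MAS5 units of the main probe set of each of the 7 genes, by group, with 1 point per array and bars for the mean and SD of 3 arrays. Fgfr1 lies between 817.5 and 1578 in DCs of Flt3L mice and between 254.8 and 396.2 in DCs of wild-type mice, while Lifr lies between 15.6 and 21.5 in wild-type DEC205 DCs.

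The subsets of wild-type mice were compared first, with limma on log2(signal + 48.6), a scale that understates the change of low genes, and Benjamini-Hochberg adjustment over 13284 genes. Il6ra and Spred1, which were not picked on their values, were higher in 33D1 than in DEC205 DCs. The picked genes Lifr and Il6st lay higher too. At an adjusted p under 0.05, 23.1% of all genes were called, 11.3% higher. Of the 3 members not picked on their values, Il6ra and Spred1 were called higher. Of the 4 picked ones, Lifr and Il6st were called higher, on wild-type arrays that also entered the choice. Nothing is therefore read from the calls of Lifr and Il6st or from a count over all 7. Lifr differed by a log2 value of 2.84 ± 0.40 (SE, adjusted p = 1.09e-05), Il6ra by 1.12 ± 0.18 (6.3e-05), Spred1 by 0.996 ± 0.258 (0.00619) and Il6st by 0.54 ± 0.16 (0.0133). The groups of these 4 did not overlap. Among all probe sets tested together, both Il6ra ones (0.64 and 1.12) and 3 of 4 Il6st ones (0.41 to 0.85) were called. Of 7 Spred1 ones, all above 0 (0.40 to 1.19), 2 were called. Fgfr1 (-0.15 ± 0.25, adjusted p = 0.756), Spry1 (-0.11 ± 0.15, 0.715) and Spry2 (0.18 ± 0.24, 0.701) did not pass. Without array 2 of 33D1 cells Il6st was at 0.46 (adjusted p = 0.0739), and without array 2 of DEC205 cells, the one with 171.6, Spred1 was at 0.66 (0.0604). In sorted bulk cells, fewer cells of a type and less RNA per cell cannot be told apart.

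In Flt3L mice Il6ra was again higher in 33D1 than in DEC205 DCs. The picked genes Il6st and Spry2 lay higher too, on the arrays they were picked on. The DC arrays are those on which 4 of the members were picked, so the p-values of these 4 in every comparison that uses DCs are not independent of that choice. Il6st was higher in 33D1 than in DEC205 DCs by 1.86 ± 0.16 (limma, adjusted p = 5.18e-09), and all 4 of its probe sets were called. Spry2 was higher by 2.05 ± 0.24 (9.36e-07) on its main probe set and by 0.57 on the other, which was not called. Il6ra was higher by 0.95 ± 0.18 (0.000386) on its main probe set and by 0.29 on the other, which was not called (adjusted p = 0.326 among all probe sets). Il6ra was the 1 call among the 3 members not picked on their values, where 23.5% of all genes were called, 11.7% higher. Lifr (0.98 ± 0.40, adjusted p = 0.0864) and Spred1 (0.67 ± 0.26, 0.068) did not pass although their groups did not overlap. Both passed with an offset 2.63 times as large (adjusted p = 0.0351 for Lifr and 0.0336 for Spred1) or with only these groups in the model (0.0176 and 0.00945). Lifr, Il6st and Spry2 are picked genes, so nothing is read from their passing or from a count over all 7. All 7 Spred1 probe sets lay above 0 (0.43 to 1.13), and 2 were called. Same-numbered arrays of the 2 subsets deviated together in Flt3L mice (r from 0.145 to 0.234), which does not establish that they were paired. With the replicate number as a block over all 21 arrays, Spred1 passed (0.0326) and Lifr did not (0.0682). With the block and only these groups, a fit with 2 residual degrees of freedom added after seeing the data, both passed (0.00748 for Spred1 and 0.0023 for Lifr). Fgfr1 differed by 0.02 ± 0.25 (0.98) and Spry1 by -0.01 ± 0.15 (0.992).

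**Figure D2:**
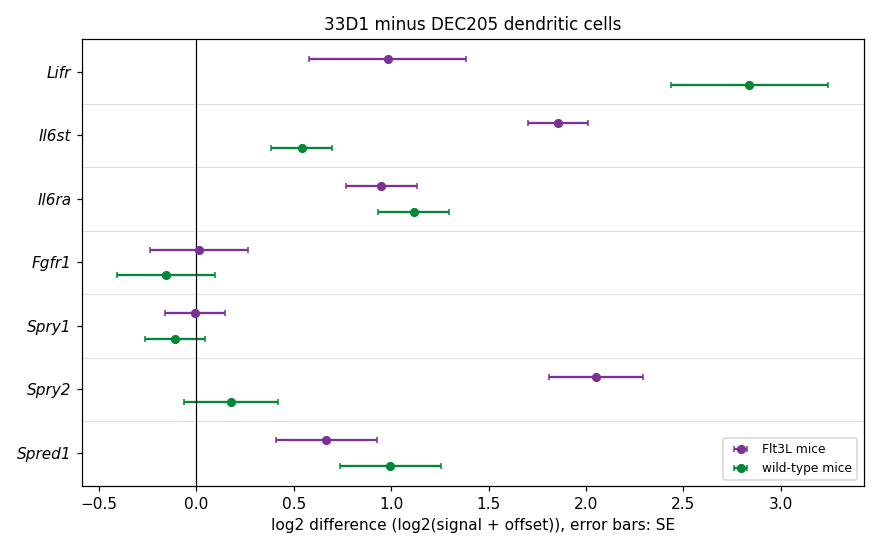
Difference of 33D1 minus DEC205 DCs on the log2(signal + offset) scale for each of the 7 genes, in Flt3L mice (upper point) and wild-type mice (lower point), with SE bars. Lifr is at 0.98 in Flt3L and 2.84 in wild-type mice, Il6st at 1.86 and 0.54, and Spry2 at 2.05 and 0.18.

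Set against wild-type mice, the 4 picked genes each had their own pattern in Flt3L mice. Fgfr1 lay higher in both subsets, by 1.94 ± 0.25 in 33D1 DCs and 1.77 ± 0.25 in DEC205 DCs (SE), on main-probe-set values. Its other probe sets lay in the same direction. The smallest differences were those of the dimmest one, 0.52 ± 0.41 in 33D1 DCs, where its groups overlapped, and 0.53 ± 0.41 in DEC205 DCs. Lifr was at 0.61 ± 0.40 in 33D1 DCs and at 2.47 ± 0.40 in DEC205 DCs, where the wild-type signal was at most 21.5. This value moves with the offset, to 3.29 with an offset of 16 and 1.63 with one 2.63 times as large as 48.6. Il6st was at -0.02 ± 0.16 in 33D1 DCs and at -1.33 ± 0.16 in DEC205 DCs, with all 4 probe sets below 0 there, between -1.33 and -0.52. In 33D1 DCs the 4 lay between -0.54 and -0.001. The probe set at -0.54 there was at -0.52 in DEC205 DCs, so the contrast between the subsets was not seen on it. Spry2 was at 0.72 ± 0.24 in 33D1 DCs and at -1.15 ± 0.24 in DEC205 DCs. Its second probe set, with group means between 72.2 and 137.7 in DCs, was at -0.13 and -0.26, so the higher value in 33D1 DCs was not seen on it. Leaving out any array of the compared groups kept the Lifr difference in DEC205 DCs between 2.24 and 2.76, that of Fgfr1 between 1.59 and 2.04, that of Il6st between -1.43 and -1.25 and that of Spry2 between -1.30 and -0.88.

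In DEC205 DCs, Il6st and Spry2 were thus lower and Lifr higher in Flt3L mice. Markers of CD8-negative DCs moved there as well. Their summed signal was 1389 to 1471 in DEC205 DCs of Flt3L mice and 2654 to 8016 in those of wild-type mice, and 5 of the 10 were called lower. Sirpa, Irf4, Clec4a2, Cd4 and Tgm2 were at or below the table median on all DEC205 arrays of Flt3L mice, and Irf4 alone on all those of wild-type mice. In 33D1 DCs the same sum was 72069 to 75066 in Flt3L mice and 90169 to 98148 in wild-type mice, and 1 of the 10 was called lower. Of 6 plasmacytoid DC markers, 1 was called higher in 33D1 DCs and 0 were called in DEC205 DCs. Their summed signal in 33D1 DCs was 6223 to 7782 in Flt3L mice and 4313 to 5487 in wild-type mice. Of 7 tested B cell markers, 1, Ms4a1, was called lower in DEC205 DCs, and their summed signal was 827.7 to 1274 in Flt3L mice and 2684 to 2829 in wild-type mice. Cd79a, Cd79b, Ebf1 and Cr2 lay at or below the table median on all 6 of these arrays. In 33D1 DCs the sum of the B cell markers was also lower, 2183 to 2472 in Flt3L mice and 3296 to 3555 in wild-type mice, with 0 called. The part of these markers in the values of the members was not tested. Without both arrays that carried more of the other subset's markers, the differences in DEC205 DCs were -1.35 for Il6st, -1.27 for Spry2, 2.47 for Lifr and 1.69 for Fgfr1.

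Of the 3 genes that were not picked, 0 passed the limma test in either subset, and 0 had an unadjusted p under 0.05. Of all genes, 1.01% were called in 33D1 DCs, 0.851% higher and 0.158% lower, and 2.11% in DEC205 DCs, 1.22% higher and 0.888% lower. Il6ra was at -0.20 ± 0.18 in 33D1 DCs (adjusted p = 0.817) and -0.03 ± 0.18 in DEC205 DCs (0.978). Spry1 was at -0.17 ± 0.15 (0.811) and -0.27 ± 0.15 (0.526). Spred1 was at -0.01 ± 0.26 (0.996) and 0.32 ± 0.26 (0.726). The test of the difference between the 2 Flt3L effects also called none of these 3, with adjusted p = 1 for each, where 0.105% of all genes were called, 0.0903% higher and 0.0151% lower. For the picked genes that difference, 33D1 minus DEC205, was -1.86 ± 0.57 for Lifr, 1.32 ± 0.22 for Il6st, 0.17 ± 0.35 for Fgfr1 and 1.87 ± 0.34 for Spry2, again with no test. These are main-probe-set values. Over all its probe sets Il6st ranged from -0.02 to 1.32, and the other Spry2 probe set was at 0.13.

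**Figure D3:**
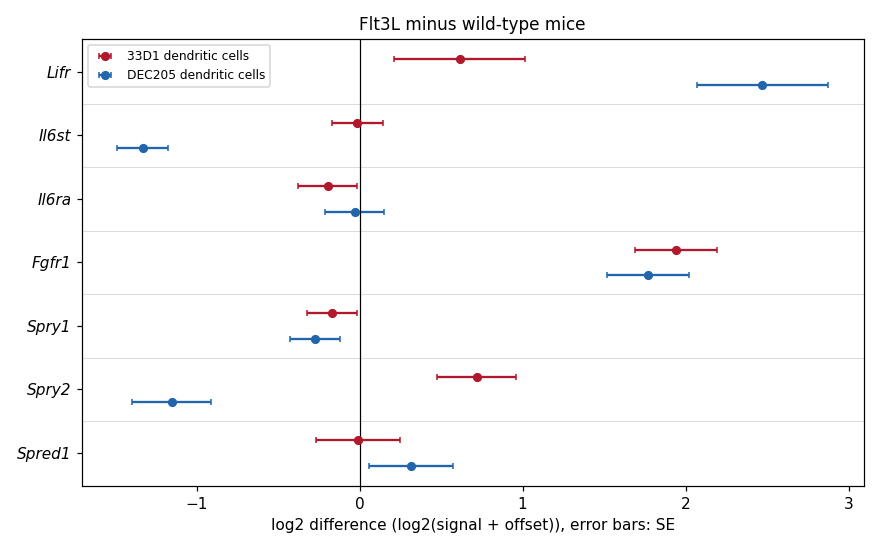
Difference of Flt3L minus wild-type mice on the log2(signal + offset) scale for each of the 7 genes, in 33D1 DCs (upper point) and DEC205 DCs (lower point), with SE bars. On the main probe sets drawn, Fgfr1 lies near the same value in both subsets (1.94 and 1.77), Il6st is at -0.02 and -1.33, and Spry2 lies on opposite sides of 0 (0.72 and -1.15).

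Across lineages, Il6st was lower in B cells than in wild-type DCs and T cells on all 4 probe sets, while the separation by Il6ra, Fgfr1 and Spred1 depended on the probe set. Wild-type DCs, as the mean of both subsets, exceeded B cells for Il6st by 3.33 ± 0.14 (SE, limma, adjusted p = 7.45e-15), for Fgfr1 by 2.35 ± 0.22 (8.55e-09), for Spred1 by 1.52 ± 0.22 (8.1e-06) and for Il6ra by 1.49 ± 0.16 (7.16e-08). Of all genes 40% were called, 18.8% higher and 21.1% lower, and Il6ra and Spred1 were the calls among the 3 members not picked on their values. The other Il6ra probe set was at 0.20 (adjusted p = 0.379 among all probe sets), with overlapping groups. All 3 Fgfr1 probe sets and 5 of 7 Spred1 probe sets were called. Spry1 (-0.07 ± 0.13, adjusted p = 0.751) and Spry2 (-0.40 ± 0.21, 0.148) did not pass, though Spry2 did without array 2 of DEC205 cells (0.0364). Lifr did not pass either (-0.48 ± 0.35, 0.31), and its sign is that of a mean over a high and a low DC subset. Without array 3 of the B cells, the one with a signal of 55.6, Lifr was lower in DCs than in B cells by -1.11 (0.00533).

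Against T cells, as the mean of CD8 and CD4 T cells, all 3 members not picked on their values were called in wild-type DCs, Spred1 higher and Il6ra and Spry1 lower, where 52.7% of all genes were called, 22.7% higher and 30% lower. The median difference of all genes was -0.14. This comparison shares its DC arrays with the one against B cells. Fgfr1 was higher in DCs by 1.72 ± 0.18 (SE, limma, adjusted p = 2.85e-08), Lifr by 1.47 ± 0.29 (0.000153) and Spred1 by 1.23 ± 0.18 (5.79e-06). The Lifr difference came with overlapping groups, since wild-type DEC205 DCs lay within the range of CD4 T cells. Spred1 overlapped too, with 171.6 on 1 wild-type DEC205 array and up to 252.5 in CD8 T cells, and 5 of its 7 probe sets were called. Of the 3 Fgfr1 probe sets 2 were called, and the dimmest was at 0.09 (adjusted p = 0.822 among all probe sets). Il6ra (-0.74 ± 0.13, 4.56e-05) and Spry1 (-0.40 ± 0.11, 0.00356) were lower in DCs. Il6st was at -0.24 ± 0.11 (0.0711). It passed at -0.47 when the 4 probe sets were averaged (3.13e-05), and also with quantile normalization, with only these groups in the model, and without array 3 of CD8 T cells (0.0424).

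B cells lay below T cells for Il6st (-3.57 ± 0.14, limma, adjusted p = 2.34e-15) and Il6ra (-2.23 ± 0.16, 1.32e-10). They lay above T cells for Lifr (1.95 ± 0.35, 0.000136), on arrays that ranged from 55.6 to 483.8. Fgfr1 was lower (-0.64 ± 0.22, 0.0321), with both groups below the table median, and this call was lost without array 2 or 3 of B cells, array 1 of CD4 T cells or array 2 of CD8 T cells. In all, 1 member was higher and 3 lower, where 26.9% of all genes were called, 13.1% higher and 13.9% lower, with a median of -0.34 against -0.06. Spry1 (-0.34 ± 0.13, 0.0689) passed without array 2 of CD4 T cells. Between CD8 and CD4 T cells limma called 0 of the 7, where 3.26% of all genes were called. Lifr and Fgfr1 lay below the table median on all T cell arrays, so this count says little about those genes. An unadjusted p under 0.05 was reached by 3 members. Of these, Spry1 came nearest, at -0.54 ± 0.15 (adjusted p = 0.0629) with groups that did not overlap.

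**Figure D4:**
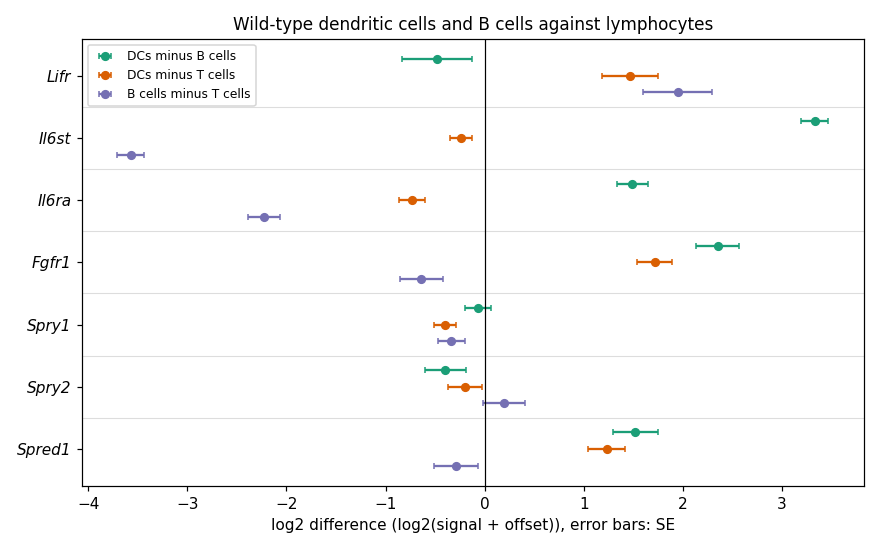
Differences on the log2(signal + offset) scale for each of the 7 genes, with SE bars, for wild-type DCs minus B cells (upper), wild-type DCs minus T cells (middle) and B cells minus T cells (lower). Il6st is at 3.33 in DCs minus B cells, -0.24 in DCs minus T cells and -3.57 in B cells minus T cells, and Fgfr1 and Spred1 lie above 0 in both DC comparisons on the main probe sets drawn.

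The other genes of the pathways were taken from 11 lists with 117 genes, of which 81 passed the filter. The lists were chosen with earlier results of these data known, so their shares beside those of all genes are descriptions. In Flt3L mice 21 of the 81 were called higher in 33D1 than in DEC205 DCs and 7 lower, and in wild-type mice 22 were higher and 3 lower. These were 25.9% higher and 8.64% lower in Flt3L mice, where 11.7% and 11.8% of all genes were, and 27.2% and 3.7% in wild-type mice, where 11.3% and 11.8% of all genes were. With the replicate block and only these groups, 43 of the 81 were called in Flt3L mice, not 28, as were 4254 of all genes, not 3125. The median difference was 0.27 in Flt3L mice and 0.15 in wild-type mice, against 0.04 for all genes in both. Of the 28 calls in Flt3L mice 20 were kept with every array left out in turn, and of the 25 in wild-type mice 12 were. The wild-type calls numbered 16 without array 1 of 33D1 cells, 14 without array 2 of 33D1 cells and 15 without array 2 of DEC205 cells.

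On the gp130 side, the receptor chain Il27ra, which pairs with gp130 to bind interleukin-27, was 1 of 5 other receptors called in each kind of mouse. Its signal was 88.7, 201.3 and 309.1 in 33D1 DCs of Flt3L mice, against 19.1, 18.6 and 7.3 in DEC205 DCs of Flt3L mice, while it was 360.9, 236.4 and 266.2 in wild-type 33D1 DCs, against 32.1, 24.6 and 43.6 in wild-type DEC205 DCs. The difference was 1.86 ± 0.24 in Flt3L mice (SE, limma, adjusted p = 2.5e-06) and 2.03 ± 0.24 in wild-type mice (7.74e-07). Among 8 Janus kinase and STAT genes, 4 were higher and 2 lower in Flt3L mice, and 5 were higher and 2 lower in wild-type mice. In wild-type mice only the calls of Jak2 and Tyk2 held with every array left out in turn. Those of Jak1, Stat3, Stat5a, Stat5b and Ptpn11 did not. In Flt3L mice only Stat3 lost its call, without array 3 of 33D1 cells. The kinases went apart, with Jak2 higher in 33D1 DCs (0.81 ± 0.12 in Flt3L and 0.87 ± 0.12 in wild-type mice) and Tyk2 lower (-1.26 ± 0.15 and -1.12 ± 0.15). Of 9 feedback genes 6 were higher in Flt3L and 3 in wild-type mice and 0 were lower, led by the phosphatase Ptpn6 (1.66 ± 0.14 in Flt3L and 1.92 ± 0.14 in wild-type mice).

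The STAT3 target list, with 11 genes, gave 2 higher and 1 lower in Flt3L mice and 3 higher in wild-type mice. Bcl3, a partner of NF-kB factors, was higher in 33D1 DCs by 2.07 ± 0.17 in Flt3L mice and 1.88 ± 0.17 in wild-type mice. Cebpd, a transcription factor of the acute-phase response, was higher by 1.82 ± 0.28 and 1.99 ± 0.28. Myc was the gene called lower in Flt3L mice (-0.99 ± 0.24, adjusted p = 0.00374). Of 5 tested cytokines that use gp130, 2 were called in wild-type mice. Clcf1 was at 0.86 ± 0.22 and lost its call without array 3 of DEC205 cells, the mixed one, and Osm was at 0.67 ± 0.19 and lost it without array 2 of 33D1 or array 1 of DEC205 cells. In Flt3L mice limma called 0 of the 5, and 2 had an unadjusted p under 0.05.

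On the FGF side, limma called 0 of 4 other FGF receptors and coreceptors in any comparison, with 0 of 36 tests at an unadjusted p under 0.05, and of 22 FGF ligands only 7 passed the filter. Among 12 other inhibitors of the cascade, Rasa3, which switches Ras off, was lower in 33D1 DCs (-1.77 ± 0.21 in Flt3L and -2.49 ± 0.21 in wild-type mice), while Spred3, a relative of Spred1, was higher (1.05 ± 0.28 and 0.87 ± 0.28). The Spred3 call in wild-type mice was lost without any of 4 arrays. Map2k1, the kinase above ERK, was higher by 0.46 ± 0.09 in Flt3L mice and 0.72 ± 0.09 in wild-type mice. Of 9 ERK target genes, Flt3L mice had 4 higher and 1 lower in 33D1 DCs, and wild-type mice had 3 higher. Ccnd1, cyclin D1 of the G1 phase, was higher by 1.21 ± 0.15 in Flt3L mice (adjusted p = 2.63e-06) and 1.93 ± 0.15 in wild-type mice (2.56e-09).

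Between Flt3L and wild-type mice, 1 of the 81 genes was called in 33D1 DCs (1.23%, against 1.01% of all genes) and 8 in DEC205 DCs (9.88%, against 2.11% of all genes). In 33D1 DCs it was Rasa3, at 626.2, 629.3 and 875.9 in Flt3L mice against 283.4, 424.2 and 275.6 in wild-type mice (1.02 ± 0.21, limma, adjusted p = 0.0153), a call that was lost without array 3 of Flt3L mice, array 1 or array 3 of wild-type mice, or both mixed arrays. The median over the lists lay at -0.004 in 33D1 DCs, against 0.002 for all genes, and at -0.04 in DEC205 DCs, against -0.01 for all genes.

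In DEC205 DCs of Flt3L mice, Dusp7, a phosphatase of ERK, rose to 276.3, 431.9 and 494.8, against 121.3, 57.1 and 123.2 in wild-type mice (1.59 ± 0.21, adjusted p = 0.000149). This was the one of the 8 calls that held with every array left out. The 8 became 2 without array 1 or array 2 of Flt3L mice, 4, 5 and 3 without array 1, 2 or 3 of wild-type mice, and 6 without array 3 of Flt3L mice. Myc, at 1563, 1660 and 1431 in Flt3L mice against 694.2, 703.2 and 753.3 in wild-type mice, differed by 1.06 ± 0.24 (0.0222). Ccnd1 differed by 0.72 ± 0.15 (0.0147) and Sh2b3, an adaptor that restrains cytokine receptor signals, by 0.65 ± 0.14 (0.0147). Ier3, an immediate early gene, was lower at -1.86 ± 0.43 (0.0236), with 220.7, 180.6 and 440.1 in Flt3L mice against 922.6, 768.7 and 1781 in wild-type mice. The remaining 3 calls, named after their values were seen, were Etv5 (1.36 ± 0.32, 0.0279) and the immediate early factors Egr1 (-1.57 ± 0.39, 0.0374) and Egr2 (-1.52 ± 0.37, 0.0311). The ERK target list thus went in both directions, 3 higher and 3 lower of 9, with a median of -0.97 against -0.01. Without both mixed arrays, 2 of the 8 calls were left, Dusp7 and Ccnd1, and the wild-type one of these arrays had the highest Ier3 signal. The difference between the Flt3L effects of the subsets was called by limma for 0 of the 81 genes, and 9 had an unadjusted p under 0.05.

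Against lymphocytes, Ccnd1 stood far higher in wild-type DCs, by 4.62 ± 0.13 over B cells (adjusted p = 4.37e-17) and 4.53 ± 0.11 over T cells (4.56e-19). Over all lists 20 genes were higher and 23 lower in DCs than in B cells, and 29 were higher and 30 lower than in T cells. These calls were 53.1% of the 81 against B cells, where 40% of all genes were called, and 72.8% against T cells, where 52.7% were. Socs3 was lower in DCs than in T cells by -3.38 ± 0.23 (3.21e-11), with signals from 188.4 to 671.1 in wild-type DCs and from 3114 to 4917 in T cells. Il27ra was lower than in B cells by -2.94 ± 0.21 and than in T cells by -4.08 ± 0.17. Ebi3, a subunit of interleukin-27 and interleukin-35, was higher in DCs, by 1.12 ± 0.23 over B cells and 4.03 ± 0.19 over T cells. Between B and T cells 14 genes were higher and 18 lower in B cells (39.5%, against 26.9% of all genes). Between CD8 and CD4 T cells 3 were higher and 5 lower in CD8 T cells (9.88%, against 3.26% of all genes), among them Cish, an inhibitor of STAT5 signalling, at -1.23 ± 0.18 (0.00014). These 8 calls became 3 without array 3 of CD4 T cells and 5 without array 2 of CD8 T cells.

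**Figure D5:**
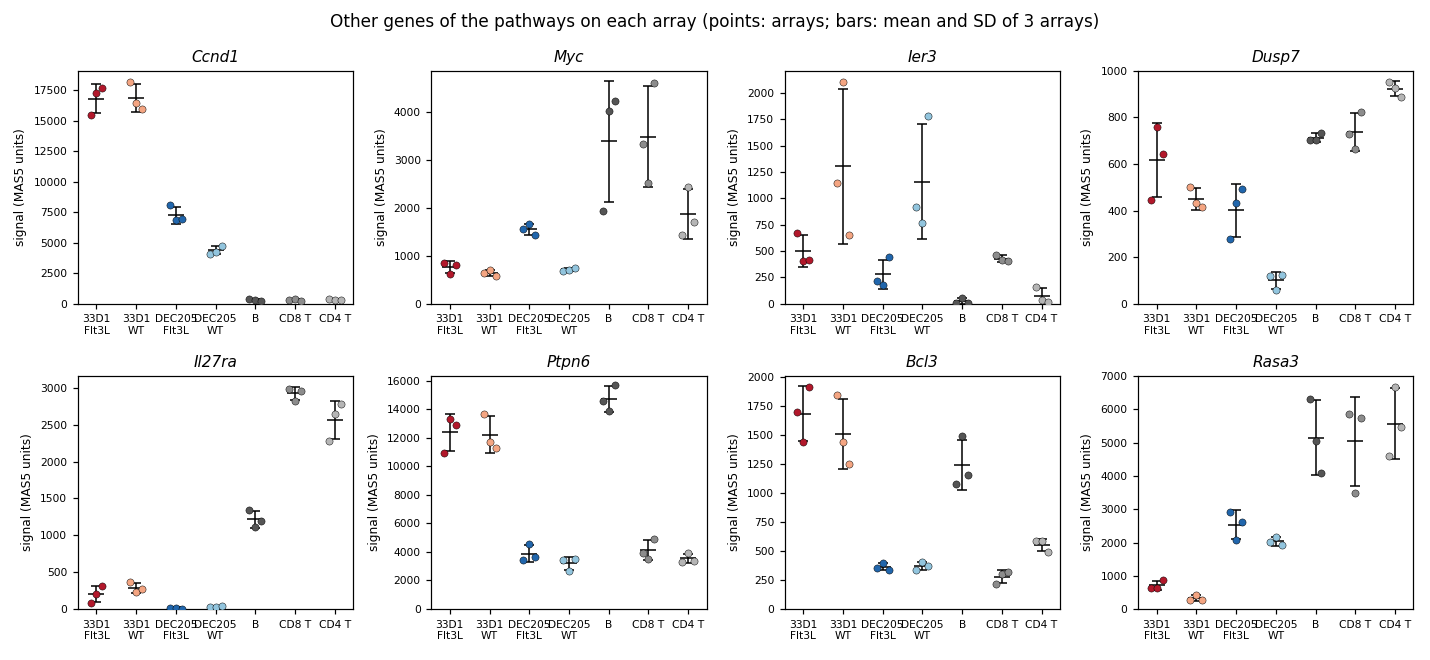
Signal in MAS5 units of 8 other genes of the pathways, by group, with 1 point per array and bars for the mean and SD of 3 arrays. Dusp7 lies between 276.3 and 494.8 in DEC205 DCs of Flt3L mice and between 57.1 and 123.2 in those of wild-type mice, and Il27ra and Bcl3 lie higher in 33D1 than in DEC205 DCs of both kinds of mice.

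The genes most like each member over the 7 group means of log2(signal + 48.6) were sought among 5702 genes with a range of at least 1. They share the same arrays, and the correlations are descriptions. For Lifr these were Slc43a3 (r = 0.972), Cbx5, a heterochromatin protein (0.955), and Etv5, the ETS factor of the ERK target list (0.953). For Il6st they were the adaptors Fyb (0.979) and Lcp2 (0.957) and the receptor Rtn4rl1 (0.951), which also came first for Il6ra (0.972), ahead of Trim2 (0.972) and Tes (0.966). For Fgfr1 they were Rcc1, the exchange factor of Ran (0.999), Cenpp, a centromere protein (0.992), and Atad2 (0.990). For Spry2 they were D3Ertd751e (0.997), Igf2bp3 (0.927) and Lama5 (0.917), and for Spred1 the lectin receptor Cd302 (0.995), the interferon receptor chain Ifnar2 (0.990) and Shb (0.986). Spry1, whose own group means ranged over only 0.89, was most like Fam124b (0.983), Ecm1 (0.982) and Sfrp1 (0.967).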

How the data were processed

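The authors deposited 1 linear intensity per probe set and array. The submitters' processing notes name GCOS and MAS5, without versions. Each array's trimmed mean is 500, and this scaling was kept. With 3 arrays per group, their number limits the precision. Of 45101 probe sets 34945 had 1 gene symbol, 932 several and 9160 none, and 64 were control probe sets. A probe set was kept if it exceeded the table median, 156.3, on at least 3 of 21 arrays. The probe set with the highest mean stood for each of 13284 genes, and the members' other kept probe sets were tested in a fit of all probe sets together. The offset of 48.6 is the 25th percentile of all signals, and log2(signal + 48.6) was fitted with a mean per group over all 21 arrays (limma 3.58.1, R 4.3.3, eBayes with trend, 14 residual degrees of freedom, two-sided, Benjamini-Hochberg over all genes), and genes were called at an adjusted p under 0.05. The fit was tested on simulated data. Figures and sums were made with Python 3.11.15.

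The members and the pathway and marker lists were chosen with earlier results of these data known. Named pathway genes were up to 3 called genes per list and DC comparison with the smallest adjusted p, and up to 1 for lymphocytes, and likeness was ranked by Pearson correlation, the top 3 being named. Promoters come from a RefSeq table (GRCm38.p6). Within a group arrays correlated with r between 0.949 and 0.979, and 0 pairs held identical values. Same-numbered arrays of 33D1 and DEC205 DCs of Flt3L mice deviated together from their group means (r = 0.234, 0.145 and 0.157). A replicate block was therefore also fitted for these 2 groups. Different numbers gave -0.139 to -0.004, but deviations from a mean sum to 0, so these values are no separate support. No other pair of groups had every same-numbered r over 0.1. Different-numbered arrays of other groups reached higher values, such as 0.423 for array 3 of wild-type 33D1 and array 2 of wild-type DEC205 DCs. The labels give no pairing, and these values do not establish one. Alternatives were other offsets, no filter, quantile and median scaling, averaged probe sets, another variance model, only the compared groups, a replicate block, each array left out, both mixed arrays left out, and, added after seeing the data, the block within the 2 DC groups of Flt3L mice.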

Additional observations from a re-analysis of the deposited data

Results flagged for a closer look

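On its main probe set, Spry2 lay on opposite sides in the 2 DC subsets. All 3 arrays of 33D1 DCs of Flt3L mice (282.4 to 294.2) lay above the wild-type ones (138.2 to 193.4), and all 3 arrays of DEC205 DCs of Flt3L mice (14.3 to 44.3) lay below the wild-type ones (98.9 to 215.3). The difference between the Flt3L effects was 1.87 on the log2 scale. It was not tested, since Spry2 was picked on these values. With both probe sets averaged, the Flt3L differences were 0.29 in 33D1 DCs and -0.71 in DEC205 DCs.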

How the results depend on the processing

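None of the 20 called member differences changed sign under the alternatives run, whereas 12 of the 63 member differences did, 10 of them tested and not called and 2 described without a test. Among these, Lifr in DCs minus B cells ranged from -1.11 to 0.06, Spred1 in DEC205 DCs of Flt3L minus wild-type mice from -0.02 to 0.52, Fgfr1 in 33D1 minus DEC205 DCs of Flt3L mice from -0.26 to 0.20, and Il6st in 33D1 DCs of Flt3L minus wild-type mice from -0.18 to 0.12. Of the counts of called members and pathway genes, 336 values under an alternative stayed within 1.5 times, 9 came out higher and 17 lower. In the subset comparison of Flt3L mice, 5 members were called, not 3, with an offset 2.63 times as large or with only those groups in the model, without or with the replicate block, and with the block 43 pathway genes, not 28. Between CD8 and CD4 T cells, 1 member (Spry1), not 0, was called with averaged probe sets, with that larger offset, with quantile normalization and with a robust fit without trend. Pathway genes called there numbered 4, not 8, with only those groups in the model, and 3 to 10 when an array was left out. The single pathway call in 33D1 DCs between Flt3L and wild-type mice became 2 with averaged probe sets, 0 without both mixed arrays, and 0 to 1 when an array was left out. In DEC205 DCs the 8 calls became 4 with the robust fit, 2 without both mixed arrays, and 2 to 6 when an array was left out. The 25 pathway calls of the wild-type subset comparison became 14 to 25 when an array was left out. The causes were not tested, beyond the fewer arrays of the fits that leave some out.

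Over all genes, 85, not 134, were called between Flt3L and wild-type mice in 33D1 DCs without both mixed arrays, and the test between the Flt3L effects called 3, not 14, without them and 8 with the replicate block. Among picked genes, averaging the probe sets gave Flt3L differences of 1.21 for Fgfr1 and 0.29 for Spry2 in 33D1 DCs, and 1.24 for Fgfr1, -0.96 for Il6st and -0.71 for Spry2 in DEC205 DCs. The larger offset gave -0.70 for Spry2 in DEC205 DCs, and an offset of 16 gave -1.62. Replicate numbers were not shown to pair the samples. Same-numbered arrays over all groups correlated with r between -0.378 and 0.355 (median -0.03). Only 1 of 21 group pairs, the 2 DC subsets of Flt3L mice, had every r over 0.1. With the replicate number as a block over all arrays, 3002 genes were called in the wild-type subset comparison, against 3070 without it, and Spred1 passed in Flt3L mice (0.67, limma, adjusted p = 0.0326). That fit left no other call of a member different. Signals below the table median carry the least precision, which concerns Lifr in wild-type DEC205 DCs and T cells, Spry2 in DEC205 DCs and Fgfr1 in lymphocytes. It also concerns Spry2 in wild-type 33D1 DCs and Spred1 in B cells and CD4 T cells, each above that median on only 1 array. Lifr and Il6st in B cells and Spry2 in CD4 T cells were above it on 2 arrays.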
